A study of Mus musculus with 6 samples.

Results

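The genes described here are products of the gastric chief cell: the zymogens and other secreted or surface proteins Pgc, Pga5, Cblif, Lipf, Cym, Chia1, Gpx3 and Slc1a2. They were chosen by gene symbol, taking every named probe of the array for each gene. Of these 8 genes, 7 had a probe, with 12 probes among the 45281 of the array, which name 19057 genes. Cym had no named probe and is not analysed further. Lipf had 1 probe and Slc1a2 had 5, of which 2 lay below the limit for testing, as did the Lipf probe. That left 9 probes of 6 genes among the 22640 probes tested.

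Total RNA of the fundic gastric mucosa was measured on 6 Illumina bead arrays, 3 from Lasp1 knockout and 3 from wild type mice. All mice were of the C57Bl/6Ncr strain and 3 months old. Lasp1 encodes a LIM and SH3 domain protein that binds actin and is abundant in parietal cells, and the study asked what deleting it does to gene expression in the gastric mucosa. The sources used here name no allele and no sex, nor do they state whether the arrays came from separate mice. The p-values therefore measure the spread between these samples, which may be technical.

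Chief cells lie at the base of the oxyntic glands of the stomach body and store digestive proenzymes in apical granules. Pepsinogens are aspartic protease precursors that cut themselves into active pepsin in acid. The chief cell programme is known to depend on the transcription factor Bhlha15 (Mist1), which the stomach shares with the exocrine pancreas. In mice, chief cells also make intrinsic factor, which human parietal cells make instead.

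The stretches of 100 bases before the annotated transcription start are shown for 5 of the genes, to set the genes read high in the range of the array (Pgc, Cblif and Chia1) beside Lipf, read at background, and Cym, without a probe. They are RefSeq sequences of the GRCm38.p6 mouse assembly, 5′ to 3′ on the strand of the gene, with the motif TATAAA in capitals.
Pgc, chr17:47726742-47726841, plus strand: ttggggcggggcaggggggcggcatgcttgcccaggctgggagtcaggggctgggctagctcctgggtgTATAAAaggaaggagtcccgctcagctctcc
Cblif, chr19:11747459-11747558, plus strand: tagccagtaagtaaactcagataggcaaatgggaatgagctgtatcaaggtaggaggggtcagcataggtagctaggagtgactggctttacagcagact
Chia1, chr3:106113282-106113381, plus strand: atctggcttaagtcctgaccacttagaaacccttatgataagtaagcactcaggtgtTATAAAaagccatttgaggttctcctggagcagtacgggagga
Lipf, chr19:33961148-33961247, plus strand: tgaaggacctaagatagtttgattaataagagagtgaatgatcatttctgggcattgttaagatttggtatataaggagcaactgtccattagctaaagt
Cym, chr3:107221733-107221832, minus strand: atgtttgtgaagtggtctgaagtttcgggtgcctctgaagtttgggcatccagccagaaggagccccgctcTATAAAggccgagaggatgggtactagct
An entry was found for 7 of the 8 genes. TATAAA, searched on both strands, occurred in 3 of these 7 stretches, those of Pgc (first base at position -31, counting the base before the start as -1), Chia1 (-43) and Cym (-29). It occurred in 5.56% of the 32851 stretches of this length in the table. CANNTG, the general form of the E-box bound by basic helix-loop-helix factors, reads the same on both strands. It occurred in the stretches of Cblif, Lipf, Chia1 and Slc1a2, against 34.4% of all stretches, and none of its matches overlapped TATAAA. These matches describe letters only.

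All arrays had been scaled by the authors to a median of 1000, and background had not been subtracted. The 8 probes of the Y-linked genes checked read at most 1212 on any array, and Xist read 55746 to 88070. A value near 1000 is therefore background here. Pancreatic acinar transcripts stood out on wild type replicate 3, where the 9 measured markers summed to 5114266, against 591018 to 751531 on the knockout arrays and 624075 and 718234 on wild type replicates 1 and 2. On the other arrays most of that sum was Clps, colipase, which read 513831 to 635559 on all 6. In other pancreatic genes knockout replicate 3 also stood out: Cela2a, an elastase, read 2400, 1368 and 58913 in the knockout and 1288, 1311 and 647587 in the wild type. Squamous markers, 6 in all, summed to 964603 on knockout replicate 1 and 571567 on wild type replicate 2, and to 28121 or less on the other arrays. Gast, the antral hormone gastrin, read 5003, 21207 and 861 on knockout replicates 1 to 3 and 43741, 35100 and 1354 on wild type replicates 1 to 3. The 6 parietal markers summed to 961957 to 1099228 on knockout arrays and 991624 to 1028987 on wild type arrays. Most of that sum was Atp4a and Atp4b, at 64.8% to 94.8% and 74.5% to 89.4% of the array maximum. The sum therefore does not bound a parietal difference.

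By its brightest probe the targeted gene was lower on every knockout array than on any wild type array. The brightest Lasp1 probe averaged 96449 ± 12620 in knockout and 241114 ± 55289 in wild type mucosa (SD, n = 3 each). The log2 difference was -1.30 (SE 0.21), which missed the threshold in limma (unadjusted p = 0.000412, adjusted p = 0.994). Probe ILMN_2879745 differed by -1.59 (SE 0.34), also without overlap of the groups. Probe ILMN_2596851 read 877, 1156 and 1021 in the knockout and 1483, 970 and 1114 in the wild type, near background. Its groups overlapped (log2 difference -0.21, SE 0.19). The deleted stretch of the gene is not named in the sources used here, and whether the probes lie in it was not tested.

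No difference between the genotypes was detected for the 6 tested chief cell genes. By limma with Benjamini-Hochberg adjustment, 0 of 6 had an adjusted p under 0.05, and 0 of 6 an unadjusted p under 0.05. Over the whole array 0.00883% of the tested probes passed (2 of 22640), and 1.73% had an unadjusted p under 0.05, so the absence of a call among 6 genes says little about them. The knockout and wild type arrays overlapped for all 9 tested probes of these genes, where 7.19% of all tested probes had groups that did not overlap. The median log2 difference of the 6 genes, knockout minus wild type, was 0.034, against a median of 0.10 over all tested probes. Of the 6 genes 5 were higher and 1 lower, where 76.9% of all tested probes were higher. After quantile normalization 3 of the 6 were higher, against 50.9% of all tested probes. After undoing the authors' scaling 2 were, against 67.5% of all tested probes. Because the mucosa was measured in bulk, fewer chief cells and less RNA per chief cell cannot be told apart.

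**Figure D1:**
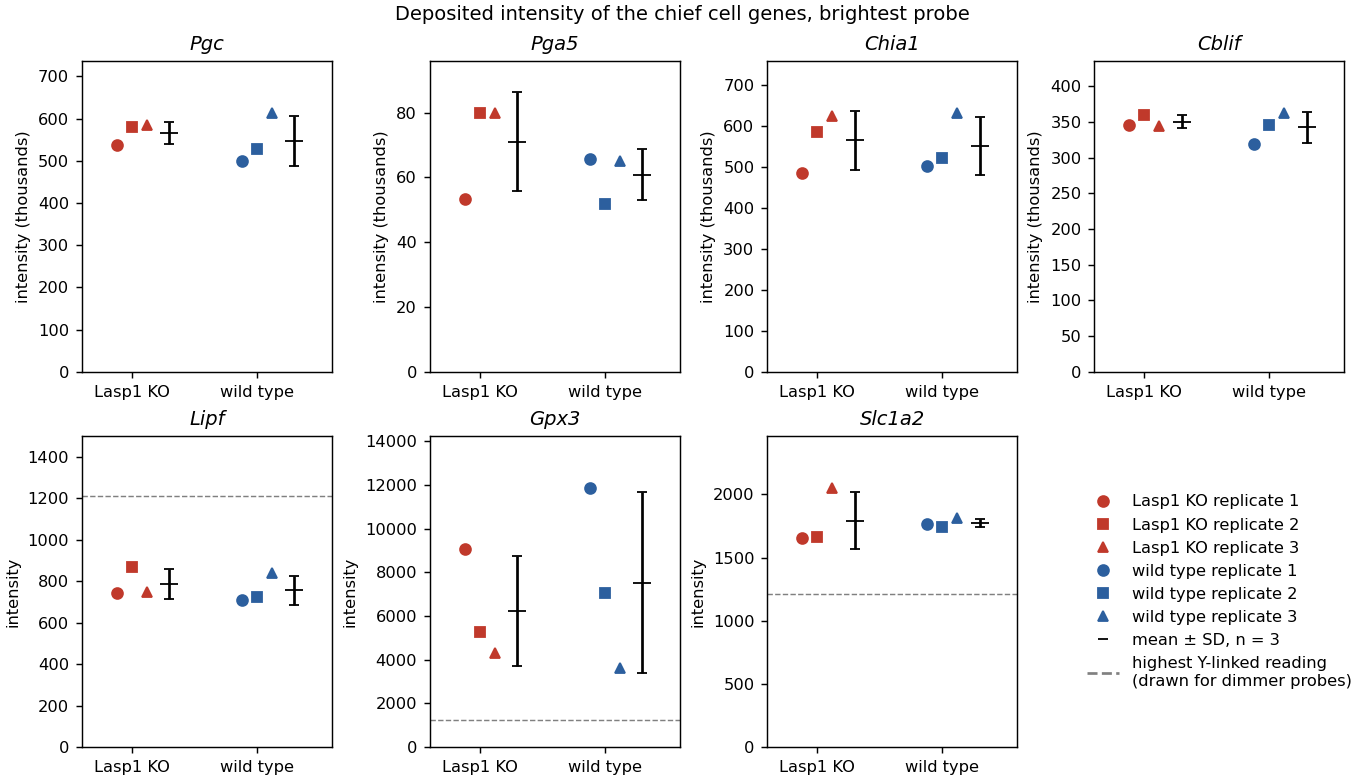
Deposited intensity (y axis, linear, divided by 1000 for the 4 brighter genes) of the brightest probe of each of the 7 genes with a probe, in the Lasp1 knockout arrays (left, red) and the wild type arrays (right, blue), with the mean ± SD of 3 arrays in black. The groups overlap for every gene, Lipf lies below the highest Y-linked reading of 1212 (dashed line), and Gpx3 has the widest spread over the arrays.

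The pepsinogens come first. Pgc encodes pepsinogen C (progastricsin), an aspartic protease zymogen. Its probe read 536572, 579282 and 584305 on knockout replicates 1 to 3, against 499744, 527626 and 613674 on wild type replicates 1 to 3. The lowest and the highest reading were both wild type, so the knockout arrays lay inside the wild type range. The means were 566720 ± 26229 and 547015 ± 59388 (SD, n = 3 each), in knockout and wild type. The log2 difference was 0.056 (SE 0.13, limma adjusted p = 0.994), with a 95% interval of -0.25 to 0.36, or 0.844- to 1.28-fold. These folds are of readings at 90.6% to 98.2% of the array maximum and do not bound the change in Pgc RNA.

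Pga5 encodes the mouse pepsinogen of the A group, named pepsinogen F in older lists. It read 53365, 79812 and 79922 on the knockout arrays and 65656, 51923 and 65084 on the wild type arrays. Knockout replicates 2 and 3 were above all wild type arrays, and knockout replicate 1 was below 2 of them. The mean was 71033 ± 15301 in knockout and 60887 ± 7769 in wild type mucosa, a log2 difference of 0.21 (SE 0.20, limma adjusted p = 0.994, 95% interval -0.27 to 0.68). After quantile normalization the difference was 0.046. Knockout replicate 1 and wild type replicate 2, the arrays with squamous transcripts, had the lowest Pga5 readings of their groups, and without both the difference was 0.29 (limma adjusted p = 1). The part of the squamous tissue in these readings was not tested.

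Only the fit with array weights called a chief cell gene. In it Pga5 rose, with a log2 difference of 0.54 (limma adjusted p = 0.036). Wild type replicate 2 carried a weight of 38.8 there and the remaining arrays 0.14 to 1.6, so the wild type mean lay close to that single reading of 51923, the lowest of the 6. The estimation of the weights stopped before its convergence tolerance, and the fit called 1816 probes in all.

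Chia1 encodes acidic mammalian chitinase, a secreted enzyme that cleaves chitin and withstands stomach acid. Its brightest probe, ILMN_2955937, read 484466, 584152 and 624173 in the knockout and 501504, 520179 and 631340 in the wild type. The groups covered nearly the same range, and the log2 difference was 0.034 (SE 0.15, limma adjusted p = 0.994, 95% interval -0.33 to 0.40). These readings lay at 88.6% to 100% of the array maximum, so the interval does not bound the change in Chia1 RNA. The second probe, ILMN_2955940, read 345379, 376809 and 373593 in the knockout and 376300, 407779 and 436188 in the wild type. Its knockout arrays lay lower, with a single crossing between knockout replicate 2 and wild type replicate 1. The log2 difference of this probe was -0.15 (SE 0.12, limma adjusted p = 0.994), so the probes of Chia1 differed in sign.

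Cblif encodes intrinsic factor, the carrier that binds cobalamin for uptake in the ileum. It read 345639, 360147 and 343779 in the knockout, against 318384, 345285 and 362449 in the wild type. All knockout values lay within the wild type range. As deposited its spread was the smallest among the tested genes, with the highest array at 1.14 times the lowest. Unscaled it was 1.18 times, above Pgc (1.08) and Chia1 (1.10). The log2 difference was 0.034 (SE 0.11, limma adjusted p = 0.994), and the 95% interval of -0.23 to 0.30 spans 0.851- to 1.23-fold.

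Lipf encodes gastric lipase, which starts fat digestion in the stomach. Its probe, ILMN_2863532, read 743, 871 and 750 in the knockout and 711, 722 and 837 in the wild type. Every reading was below the brightest Y-linked probe of its own array, so Lipf was not detected by this probe in either genotype. No fold is given for it.

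Slc1a2 encodes the glutamate transporter GLT-1, a membrane protein that clears glutamate at glia in the brain. Its brightest probe, ILMN_2642339, read 1658, 1662 and 2051 in the knockout and 1767, 1743 and 1809 in the wild type, above the Y-linked probes on all 6 arrays. The 3 wild type arrays were close together, and the knockout arrays lay on both sides of them. The log2 difference was 0.0068 (SE 0.13, limma adjusted p = 0.998, 95% interval -0.30 to 0.31). The other tested probes, ILMN_3076439 and ILMN_3123195, differed by -0.014 and 0.0026, and the 2 untested ones did not exceed the Y-linked probes on any array. With the median Y-linked reading subtracted, the difference of the brightest probe was 0.00076.

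Gpx3 encodes the extracellular glutathione peroxidase, a secreted selenoprotein that reduces peroxides and that kidney releases into plasma. It read 9053, 5277 and 4303 in the knockout and 11858, 7064 and 3621 in the wild type. The arrays of each genotype spanned more than the distance between the genotypes, and the highest array read 3.28 times the lowest. The mean was 6211 ± 2509 in knockout and 7514 ± 4137 in wild type mucosa, a log2 difference of -0.19 (SE 0.46, limma adjusted p = 0.994). Its 95% interval of -1.28 to 0.91 is the widest of the 6 genes and spans 0.412- to 1.87-fold. Leaving out wild type replicate 3 gave -0.63 and leaving out knockout replicate 1 gave -0.50. The sign turned without wild type replicate 1 (0.22) and without knockout replicate 3 (0.041), and none of these passed in limma (adjusted p = 0.797 to 1).

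**Figure D2:**
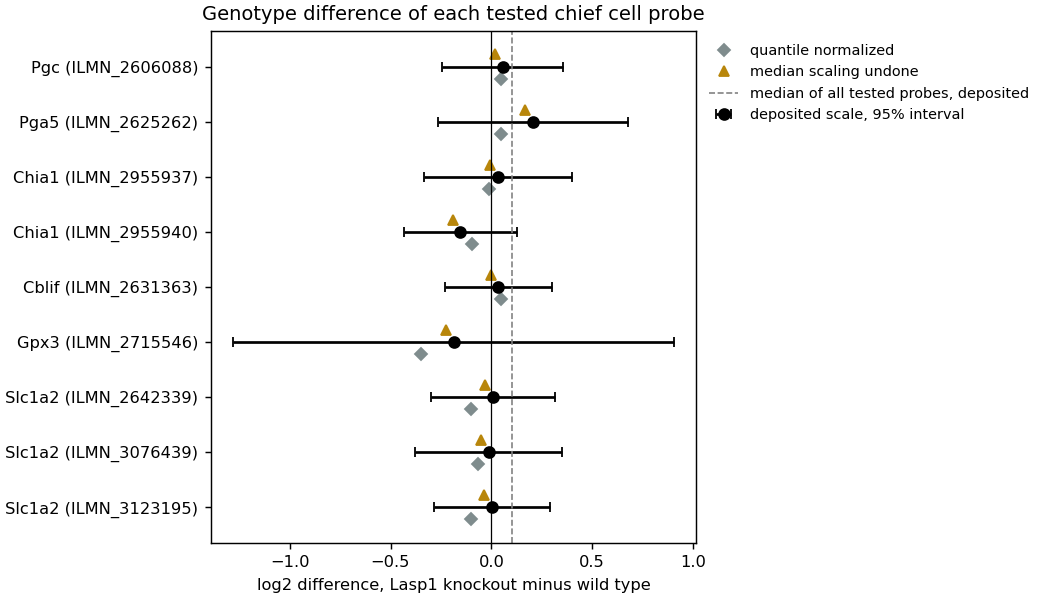
Log2 difference, knockout minus wild type (x axis), of the 9 tested probes (rows), with the 95% interval of the limma fit on the deposited values in black. All intervals cover 0, and neither quantile normalization (diamonds) nor undoing the median scaling (triangles) moves a probe outside its interval; the dashed line is the median of all tested probes, 0.10.

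In exact permutation tests of single probes, two-sided over the 3 knockout and 3 wild type arrays, the brightest probes of the 6 genes gave p = 0.5 (Pga5) to 1 (Chia1 and Slc1a2). The smallest value that 3 against 3 arrays can give is 0.1.

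The readings of Pgc and Chia1 lay at the top of what the arrays recorded. Dim values on each array fall on steps that show the authors' scale factor, and undoing it returned medians of 61.4, 54.55 and 52.35 on knockout replicates 1 to 3 and 64, 58.5 and 50.75 on wild type replicates 1 to 3. On that unscaled axis the brightest probe of an array read 33558, 34045 and 32676 in the knockout and 34169, 33706 and 34360 in the wild type. Pgc reached 98.2%, 92.8% and 93.6% of the array maximum in the knockout, against 93.6%, 91.6% and 90.6% in the wild type. The brighter Chia1 probe reached 88.6%, 93.6% and 100% in the knockout and 93.9%, 90.3% and 93.2% in the wild type, and was itself the maximum of knockout replicate 3. Whether readings of this size are compressed by the scanner was not tested.

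Undoing the scale narrowed the spread of these probes over the arrays. The highest Pgc reading was 1.08 times the lowest when unscaled, against 1.23 times as deposited, and for Chia1 the values were 1.10 and 1.30. Unscaled, Pgc read 32946, 31600 and 30588 in the knockout and 31984, 30866 and 31144 in the wild type, so knockout replicate 1 was highest in place of wild type replicate 3. The order of the arrays for Pgc thus depended on the scale factor. The spread of Cblif was not narrowed.

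The second Chia1 probe lay further below the maximum, at 63.2%, 60.4% and 59.9% in the knockout and 70.5%, 70.8% and 64.4% in the wild type. With the scale undone it read 21206, 20555 and 19558 in the knockout and 24083, 23855 and 22137 in the wild type, and the groups no longer overlapped. With the scale undone 1.70% of all tested probes had groups that did not overlap. The log2 difference was -0.19 (SE 0.20), not past the limma test (adjusted p = 1, unadjusted p = 0.367), and the exact two-sided permutation p was 0.1, the smallest possible. This probe was singled out after its values were seen, and the brighter probe differed by -0.0050 on the same scale.

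**Figure D3:**
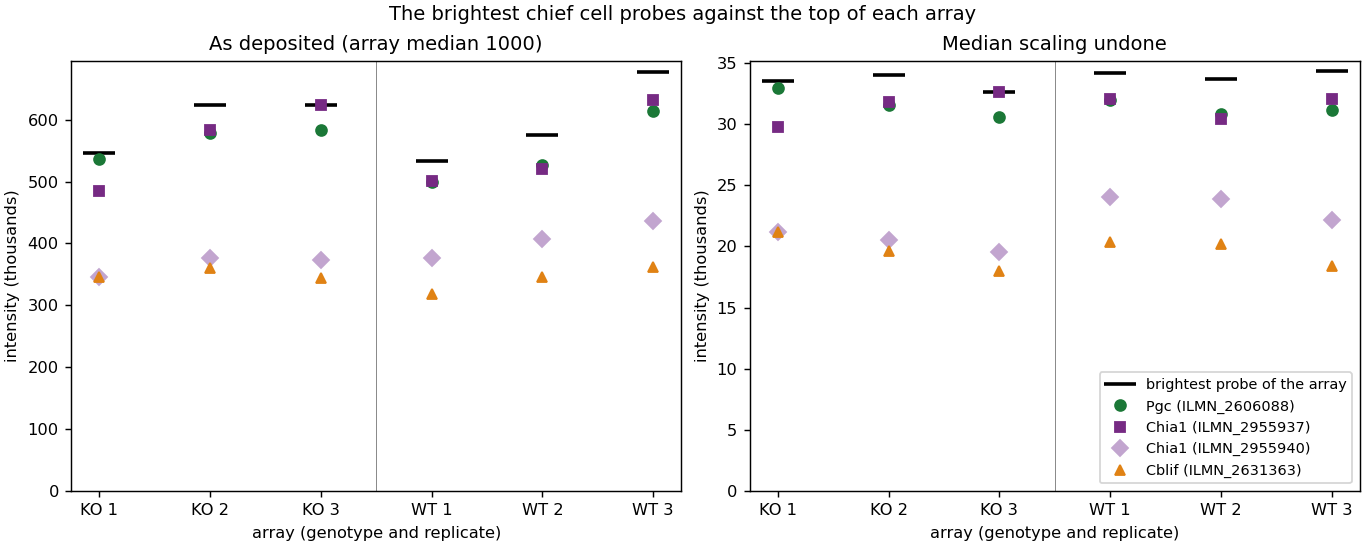
Intensity divided by 1000 (y axis, from 0) of Pgc, both Chia1 probes and Cblif on each array (x axis, knockout left, wild type right), as deposited (left panel) and with the median scaling undone (right panel), with the brightest probe of each array as a black bar. Pgc and the brighter Chia1 probe sit close under the bar on every array, and unscaled the bars lie between 32676 and 34360.

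The array titles carry a number beside the genotype, and the chief cell genes were read by it. Titles numbered 1 to 3 belong to knockout replicate 1 and wild type replicates 1 and 2, and titles 4 to 6 to knockout replicates 2 and 3 and wild type replicate 3. The labels do not say what the number means, and they set no cut between 3 and 4. Gpx3 read 9053, 11858 and 7064 on the first set and 5277, 4303 and 3621 on the second, and the sets did not overlap. With genotype in the model the first set was higher by 1.13 on the log2 scale (limma, unadjusted p = 0.00162, adjusted p = 0.06). At an adjusted p under 0.05, which Gpx3 missed, 0.724% of tested probes differed between the sets. In this model the set difference was larger in size than the genotype difference for all 6 genes. The sizes ran from 0.077 (sets) against 0.0086 (genotypes) for Cblif to 1.13 against 0.19 for Gpx3. The share of all tested probes for which this held was not counted, so it cannot be read as particular to these genes. As deposited, the sets did not overlap for 22.8% of all tested probes, and the genotypes for 7.19%.

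Pgc and Chia1 ran the other way and were lower on the first set, with log2 differences of -0.19 and -0.31 and sets that did not overlap (limma adjusted p = 0.326 and 0.132). Pga5 was lower by 0.37 on the log2 scale on the first set, with overlap (adjusted p = 0.178). As deposited, the sets did not overlap for 3 of the 6 genes, against 22.8% of all tested probes. The unscaled medians also separated the sets, at 58.5 to 64 on the first and 50.75 to 54.55 on the second. With the scale undone the sets stayed apart for Gpx3, came apart for Cblif and overlapped for Pgc and Chia1. That made 2 of 6 genes, against 46.5% of all tested probes.

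Each set holds a single array of one of the genotypes, so its genotype difference is given without a test. On titles 1 to 3 and on titles 4 to 6 the log2 differences, knockout minus wild type, were 0.063 and -0.077 for Pgc and -0.13 and 0.30 for Pga5. They were 0.060 and -0.043 for Cblif, -0.076 and -0.064 for the brighter Chia1 probe and -0.016 and 0.40 for Gpx3. For Slc1a2 they were -0.082 and 0.029. Of the 6 genes, Chia1 alone kept its sign across the sets. With the set as a block Gpx3 differed by 0.19 between the genotypes and Pgc by -0.0068, with limma adjusted p = 0.657 and 0.978.

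**Figure D4:**
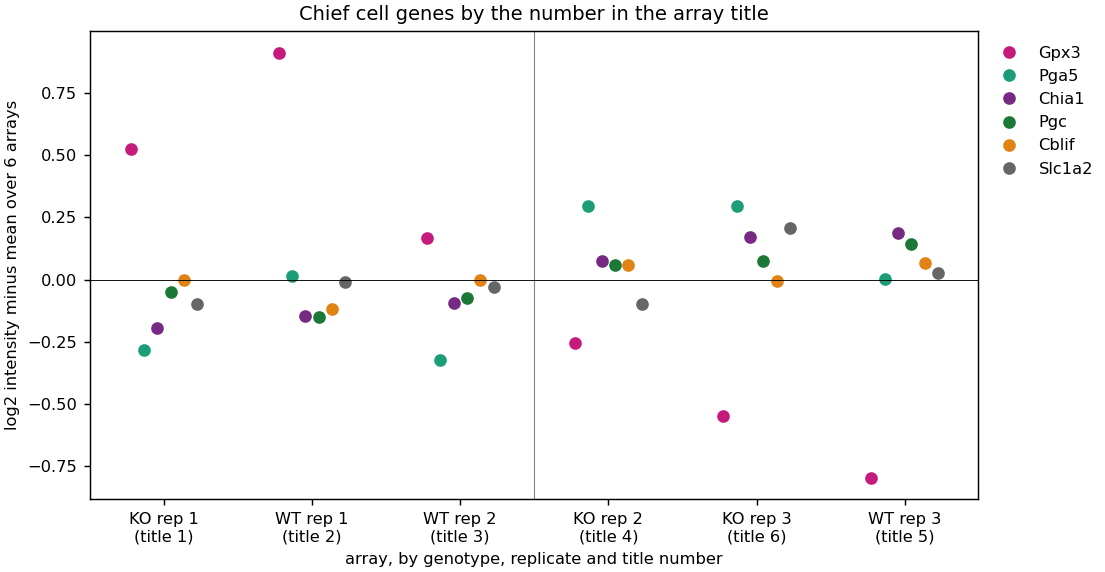
Log2 intensity of the brightest probe of the 6 tested genes, each minus its own mean over the 6 arrays (y axis), with arrays on the x axis grouped by title number, 1 to 3 left of the line and 4 to 6 right of it. Gpx3 lies above its mean on all arrays of the left set and below it on all of the right set, while Pgc and Chia1 lie the other way round.

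Gpx3 was set beside markers of other cells and tissues over the 6 arrays, as a description without a test. Pearson correlations of its log2 level with the log2 summed markers were 0.81 for smooth muscle and 0.76 for mucous neck cells. They were 0.71 for antrum, 0.54 for squamous epithelium, 0.10 for pit cells and -0.19 for parietal cells. For the pancreatic acinar sum, mostly Clps on all arrays but wild type replicate 3, the correlation was -0.65. Of the 6 smooth muscle markers 4 exceeded the Y-linked probes on every array, and their sum was 43940 to 233489 on knockout and 35213 to 103079 on wild type arrays. The 3 mucous neck markers, all above the Y-linked probes on every array, summed to 342880 to 422200 in the knockout and 352380 to 418668 in the wild type. The 2 antral markers, Gast and Pdx1, summed to 2615 to 24654 in the knockout and 2816 to 46611 in the wild type. The brighter Chia1 probe ran against the mucous neck sum (-0.90), the smooth muscle sum (-0.88) and the squamous sum (-0.78). Its highest reading was 1.30 times the lowest as deposited and 1.10 times unscaled, so its deposited spread depended on the scale factor. Its correlations with the other sums were -0.65 (antrum), -0.17 (pit), 0.37 (parietal) and 0.61 (pancreatic acinar). The correlations share their arrays and scale factors and were computed on the deposited scale only. The part of these tissues in the readings was not tested.

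Between the genes themselves, Pgc correlated with Chia1 at 0.90 and with Cblif at 0.84 over the 6 arrays as deposited, and Gpx3 correlated with Pgc at -0.96 and with Chia1 at -0.94. With the scale undone these values were -0.57, 0.79, 0.66 and -0.47. The sign of 2 of these 4 correlations, Pgc with Chia1 and Pgc with Gpx3, thus turned with the scale factor. Pga5 and Chia1 correlated at 0.70 as deposited and 0.72 unscaled. Cblif and Gpx3 correlated at -0.80 as deposited and 0.87 unscaled. Among the pairs not given here, some also changed sign with the scale undone and some kept it.

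Among 11862 other named genes, the 3 most like Gpx3 over the 6 arrays were 3110021A11Rik, Antxr1 and Ppcdc, with r of 0.997, 0.996 and 0.996. Ppcdc, an enzyme of coenzyme A synthesis, read 7815, 4017 and 3546 in the knockout and 10804, 6323 and 2796 in the wild type, the same order of arrays as Gpx3. Antxr1, an anthrax toxin receptor that binds collagen, read 5875, 3055 and 2421 in the knockout and 6953, 4087 and 2031 in the wild type. With the scale undone r was 0.999, 0.998 and 0.997. Nearest to Pga5 were Tln2, Ube2d3 and Cebpd (r = 0.99 for each). Tln2, a talin that links integrins to actin, read 2232, 3164 and 3336 in the knockout and 2623, 2188 and 2762 in the wild type. Unscaled, r was 0.99 for Tln2, 0.85 for Ube2d3 and 0.98 for Cebpd.

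For Chia1 the nearest genes were Marchf10, Egf and Ccdc114 (r = 0.98 for each). Egf, the epidermal growth factor precursor, read 5416, 11411 and 14094 in the knockout and 5936, 5698 and 14437 in the wild type, a wider spread than that of Chia1. Unscaled, r was 0.53 for Marchf10, 0.79 for Egf and 0.95 for Ccdc114. For Pgc they were Eef1a1 (0.97), Olfr1105 (0.96) and Usp50 (0.96). Eef1a1, a translation elongation factor, read 530819 to 576240 in the knockout and 500830 to 597523 in the wild type, while Olfr1105 and Usp50 read between 966 and 1111, near background. Unscaled, r lay between 0.75 and 0.78 for these 3. Cblif was nearest to Col9a1, Cds2 and Tmem168 (0.98, 0.98 and 0.97), and Slc1a2 to Lrp2, Slc5a8 and Slc26a4 (each 0.96, and 0.51, 0.42 and 0.97 unscaled). Col9a1 and Cds2 read within 932 to 1108 on all arrays, near background. Slc26a4 at 969 to 1202 and Marchf10 at 1007 to 1252 were also near it. Lrp2 read 1545 on knockout replicate 3 and 831 to 1105 on the other arrays. All these r values are the highest among 11862 genes over 6 arrays, and whether chance gives values as high was not tested.

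Of the other chief cell genes, 4 read far above the remaining arrays on wild type replicate 3. All 8 genes were tested, 4 were higher and 4 lower in the knockout, and 0 passed limma at an adjusted p under 0.05 (0 of 8 also at an unadjusted p under 0.05), against 0.00883% and 1.73% of all tested probes. Their median log2 difference was -0.24, where 76.9% of all tested probes were higher in the knockout. After quantile normalization 1 of the 8 was higher, against 50.9% of all tested probes, and the median was -0.39. With the scale undone 3 were higher, against 67.5% of all tested probes. The pancreatic procarboxypeptidase Cpb1 read 1178, 932 and 5731 in the knockout and 902, 1074 and 579832 in the wild type. Cpb1 exceeded the Y-linked probes on 3 of the 6 arrays. Outside knockout replicate 3 and wild type replicate 3 it read near background. Rnase1, a secreted ribonuclease, read 100423, 40159 and 61819.5 in the knockout and 102960, 86402 and 619319 in the wild type. Both were highest on wild type replicate 3, the array with the highest pancreatic sum.

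Bhlha15, the transcription factor of zymogen-secreting cells, read 14419, 14841 and 23420 in the knockout and 20952, 17029 and 40856 in the wild type. Rab26, a granule GTPase regulated by Bhlha15, read 1343, 1553 and 2120 in the knockout and 1520, 1521 and 9844 in the wild type. Both were highest on wild type replicate 3 and, within the knockout, on knockout replicate 3. By contrast Rab3d, a GTPase on the membrane of zymogen granules, read 78611, 80458 and 82382 in the knockout and 91014, 72253 and 70534 in the wild type, lowest on wild type replicate 3. Xbp1, which drives expansion of the secretory pathway, had a log2 difference of 0.035 (SE 0.12), with 139331 to 153101 in the knockout and 133682 to 154584 in the wild type.

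Tnfrsf19 (Troy), a receptor reported in a reserve population of chief cells, read 3097, 2806 and 2840 in the knockout and 2684, 2503 and 2312 in the wild type. The groups did not overlap, in 1 of the 8 genes against 7.19% of all tested probes, and they overlapped with the scale undone. Its log2 difference of 0.22 (SE 0.12) did not pass (limma adjusted p = 0.994), and quantile normalization left 0.088. Lgr5, a stem cell receptor, read 2809, 2852 and 2408 in the knockout and 3073, 2574 and 2070 in the wild type.

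**Figure D5:**
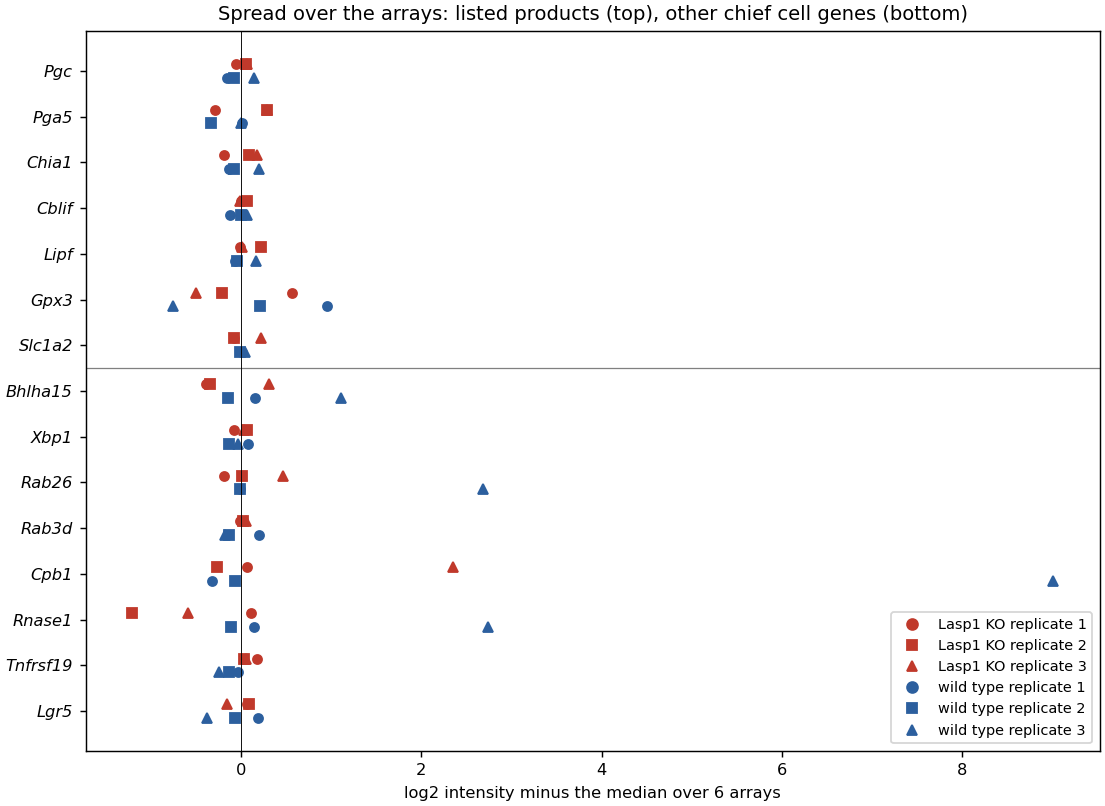
Log2 intensity of each gene minus its median over the 6 arrays (x axis), for the 7 listed chief cell products with a probe (above the line) and the 8 other chief cell genes (below it), with knockout arrays (red) plotted above wild type arrays (blue) in each row. The listed products stay near 0 apart from Gpx3, while wild type replicate 3 (blue triangle) lies far to the right for Cpb1, Rnase1, Rab26 and Bhlha15.

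Relatives of the members in the same protein families were read beside them. Ren1 and Lipm had no named probe, and 22 of the 25 relatives with a probe were tested. Of these 21 were higher and 1 was lower in the knockout, with a median of 0.27, where 76.9% of all tested probes were higher with a median of 0.10, and 0 passed limma at an adjusted p under 0.05 (3 had an unadjusted p under 0.05, where 1.73% of all tested probes did). After quantile normalization 18 were higher and the median was 0.13, against 50.9% of all tested probes. Gpx1, the cytosolic glutathione peroxidase, read 142421, 155264 and 140776 in the knockout and 129810, 123188 and 93074 in the wild type. Gpx2, the epithelial form, read 67539, 54556 and 33406 in the knockout and 47802, 40045 and 18186 in the wild type. Both were lowest on wild type replicate 3.

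The 3 relatives with an unadjusted p under 0.05 were the chitinase-like genes Chil4, Chil3 and Chil1, which bind sugars without cleaving chitin. Chil4 read 262305, 75569 and 73173 in the knockout and 6140, 88506 and 3116 in the wild type, with the knockout arrays all high and wild type replicate 2 among them. Its log2 difference was 3.25 (SE 1.22, limma adjusted p = 0.994, unadjusted p = 0.0326). By its brightest probe Chil3 read 9226, 2866 and 3249 in the knockout and 880, 3349 and 1002 in the wild type, the same pattern (log2 difference 1.62, SE 0.63, adjusted p = 0.994). The Chil3 probe ILMN_3117876 differed by 0.24 (SE 0.26) and exceeded the Y-linked probes on 1 array only. The untested Chil3 probe ILMN_2712986 also exceeded them on 1 array only. Chil1 read 1907, 1392 and 1520 in the knockout and 1208, 1300 and 1203 in the wild type, close to background. Its groups did not overlap as deposited, in 2 of the 22 relatives with Gpx1 against 7.19% of all tested probes, and overlapped for both with the scale undone. For Chil4 the highest array of each genotype was the one with squamous transcripts, with a squamous sum of 964603 on knockout replicate 1 and 571567 on wild type replicate 2. Knockout replicates 2 and 3 were high in Chil4 at squamous sums of 18706 and 15846, and the part of that tissue in the difference was not tested. Chil3 and Chil4 are close relatives, and their probes may share signal.

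Of the other families, the aspartic protease Ctse, cathepsin E of gastric surface cells, read 524521, 557828 and 575552 in the knockout and 513341, 525220 and 448154 in the wild type (log2 difference 0.16, SE 0.12). These readings lay at 66.2% to 96.2% of the array maximum. The dimmer Ctse probes ILMN_1228235 and ILMN_1222071 differed by 0.14 (SE 0.12) and -0.18 (SE 0.24). Lysosomal acid lipase Lipa had 24021, 26020 and 18686 in the knockout and 23884, 19964 and 12202 in the wild type. The glutamate transporter Slc1a3 differed by 0.015 (SE 0.17) and the cobalamin carrier Tcn2 by 0.25 (SE 0.15). Cubn, the ileal receptor for intrinsic factor, and its partner Amn stayed below the Y-linked probes on all 6 arrays.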

How the data were processed

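Biotin-labelled cRNA was hybridised to Illumina arrays, per the labels' protocols. The deposited intensity values are linear; from the values, the authors scaled each array to a median of 1000 without subtracting background (lowest value 542) or quantile normalizing. No scanner software, filter or build is named in the sources used here. Of 45281 probes, 34885 had 1 gene symbol in the platform annotation, 18 several and 10378 none; 34807 matched the GRCm38.p6 gene table. The unscaled values were recovered from steps of 0.05 (tolerance 0.02 of a step; values under 2000). Precision is limited by the number of arrays and by signal over background: 35.8% to 48.5% of probes exceeded the brightest Y-linked probe of their array.

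Log2 intensities (floor 16) of 22640 probes with a mean above that of the median probe (991) were compared by genotype with limma 3.58.1 (R 4.3.3; lmFit, eBayes, two-sided, Benjamini-Hochberg adjusted p under 0.05, over all tested probes). Genes are given by their brightest probe. The fit was tested on simulated data. Genes named are Lasp1, the listed members, 8 other chief cell genes, family relatives and, for each member, the 3 genes of highest Pearson correlation over the 6 arrays. The members and lists were chosen with earlier results of these data known. Alternatives covered normalization, background, filters, variance models, blocks and leaving out arrays; undoing the scale was added after seeing the data. Figures used matplotlib 3.10.9 in Python 3.11.15.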

Additional observations from a re-analysis of the deposited data

How the results depend on the processing

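Under the 20 alternatives fitted to the whole array, array weights called 1 chief cell gene (Pga5, 0.54, given above) and the others called 0. Lasp1 kept its direction throughout and passed after cyclic loess (-1.48, limma adjusted p = 0.0491) and with array weights (-1.45, adjusted p = 0.00222). The number of probes called over the array, 2 as reported and both higher, was 0 for the probes above the 75th percentile, with the replicate block, with the scale undone, and without both arrays high in pancreatic transcripts (knockout replicate 3 and wild type replicate 3) or in squamous transcripts (knockout replicate 1 and wild type replicate 2). It was 1816 with array weights (1600 higher, 216 lower). Cyclic loess and leaving out single arrays gave at most 1 lower call, 2 higher calls and 3 calls in all, and 0 at the lowest.

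The signs of the uncalled differences were not stable. With cyclic loess the log2 differences were -0.11 for Pgc, -0.14 for Cblif, -0.13 for Chia1 and -0.082 for Slc1a2. With quantile normalization they were -0.012 for Chia1 and -0.10 for Slc1a2, and after normexp and quantile normalization -0.011 and -0.089. With the title-number block they were -0.0068 for Pgc, -0.070 for Chia1, 0.19 for Gpx3 and -0.026 for Slc1a2. With the scale undone, an alternative chosen after seeing the data, they were -0.0043 for Cblif, -0.0050 for Chia1 and -0.032 for Slc1a2. Slc1a2 gave -0.080 without both arrays high in pancreatic transcripts. The mean of the probes of a gene gave -0.060 for Chia1 and -0.0014 for Slc1a2. Leaving out single arrays gave ranges of -0.0069 to 0.14 (Pgc), 0.095 to 0.40 (Pga5), -0.016 to 0.077 (Cblif), -0.043 to 0.14 (Chia1), -0.63 to 0.22 (Gpx3), -0.095 to 0.058 (Slc1a2) and -1.51 to -1.19 (Lasp1). The cause of these changes was not tested. Slc1a2 is not among the probes above the 75th percentile and has no value there.

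Same-numbered replicates did not deviate together throughout (correlations 0.045, -0.30 and 0.53 over the tested probes). Differently numbered pairs ranged from -0.56 to 0.55. With 3 arrays per genotype these values cannot decide whether same-numbered replicates share more than a number. With the replicate block Pga5 differed by 0.21 (limma adjusted p = 0.866) and Lasp1 by -1.30, with 0 probes called.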
